A study of Nicotiana tabacum with 20 samples.

Results

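Transcripts of tobacco leaves that were set apart in 1 transgenic line, hairpin line 8, from every other group of plants in the series form a high and a low set. Of 24069 UniGene features with read counts, 94 were at least 2-fold higher in line 8 than in each of the other groups (the high set, 0.391% of all features) and 10 were at least 2-fold lower than in each of them (the low set, 0.0415%). The level used for this choice, called X here, is the mean scaled read count of a group plus 1. For the high set X had to reach 20 in line 8, and for the low set it had to reach 20 in each of the other 4 groups. Line 8 against the other groups is therefore how the features were found, and those values are given as a description without a test. The identifiers are not paired with gene names in the files, and 0 of the 104 features matched the RefSeq gene table at hand, so functions and sequences are not given here.

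Leaves of *Nicotiana tabacum* were sampled from 5 groups of 4 libraries, all from plants 45 days old, grown in culture at 24 °C with a 14 h day on MS20 medium with antibiotic. WT was wild-type tobacco. C was transformed with the empty vector, which per the labels holds the 35S promoter, an intron and the OCS terminator together with hygromycin resistance. HP8_T1 (line 8, T1 generation), HP1_T1 (line 1, T1 generation) and HP1_T2 (from self-pollination of HP1_T1) carried a hairpin, a sense and an antisense fragment around an intron, under 35S with the OCS terminator, with hygromycin resistance and, unlike the label of C, the reporter gene GUS. HP8_T1, HP1_T1 and C are labelled as regenerants. Line 8 is 1 line, so what goes with the line cannot be told apart from what goes with the plants sampled from it, and no label states whether a group's 4 libraries are 4 plants. P-values therefore measure the spread between libraries, which may be technical.

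Retrotransposons such as Tnt1 of tobacco copy themselves through an RNA intermediate with their own reverse transcriptase, and Tnt1 is known to be transcribed under stress and in tissue culture. The labels do not say which sequence the hairpin fragments match. A hairpin RNA is cut into small RNAs, which guide the silencing of matching transcripts. Independent transgenic lines carry the transgene at different places in the genome and pass through culture separately, so lines made with the same construct can differ in many transcripts. By its title, the series concerns gene expression when retrotransposon control is altered, and these 104 features are those in which line 8 stood apart from line 1 as well as from both kinds of control.

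Total gene reads ranged from 1958952 to 3638494 per library, and 199341 to 647426 of them lay outside the single most abundant feature. Size factors from 1134 features with at least 10 reads in every library ranged from 0.512 to 1.74, with C the most thinly covered group. The whole leaf was sampled, so more RNA per cell and more cells of a type that makes it cannot be told apart.

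The high set held few reads in the controls and a larger part of the reads in line 8. Summed over the 94 features, scaled reads were 994, 1012, 997 and 957 in the 4 WT libraries and 1145, 1174, 1147 and 1163 in the C libraries. They were 9431, 9325, 9273 and 9463 in HP8_T1, while HP1_T1 had 2456, 2486, 2519 and 2458, and HP1_T2 had 2074, 2018, 2137 and 2130. Thus the sum ran in the order WT, C, HP1_T2, HP1_T1, HP8_T1, and no library of one group reached the range of another. The place of HP8_T1 in this order follows from the choice. As a share of reads outside the most abundant feature, the set took 2.05% to 2.12% in HP8_T1 libraries, 0.674% to 0.696% in HP1_T1, 0.486% to 0.502% in HP1_T2, 0.281% to 0.298% in C and 0.151% to 0.165% in WT.

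A few features carried much of this sum. The 5 with the highest level held 36.7% of the set's reads in HP8_T1, 8 had X of at least 200, 33 lay from 50 to under 200, and 53 were under 50. The median X of the set was 43.3 in HP8_T1, against 12.5 in HP1_T1, 12.6 in HP1_T2, 8.47 in C and 5.89 in WT. The ratio of X in HP8_T1 to the next highest group had a median of 2.59 and reached 12.2. This ratio was under 3 in 56 features, from 3 to under 5 in 26 and at least 5 in 12.

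**Figure D1:**
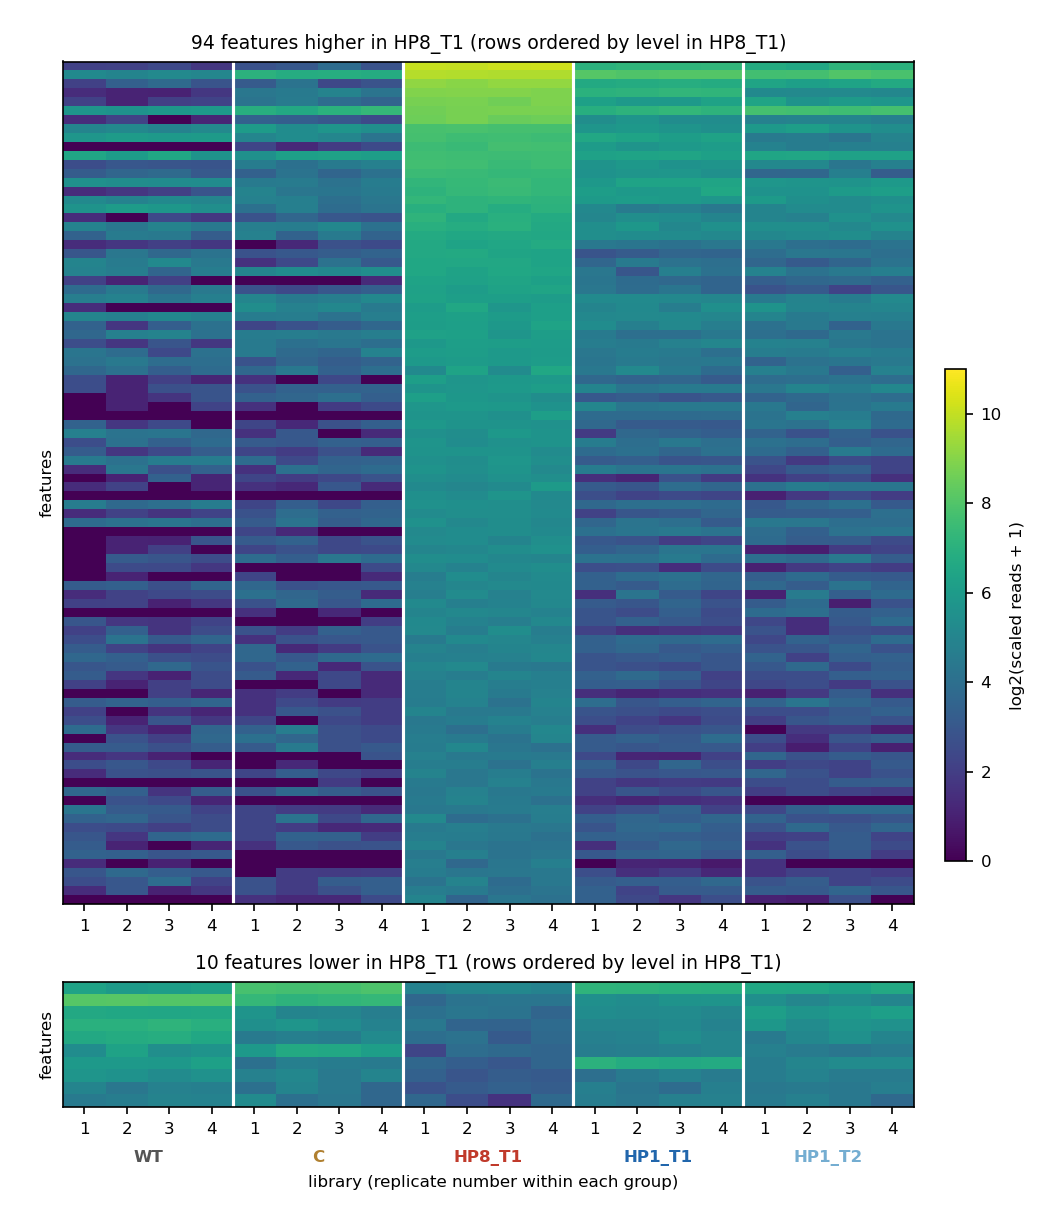
Scaled reads of each member in each of the 20 libraries on a log2(scaled reads + 1) colour scale, with rows ordered by the level in HP8_T1 and columns grouped by plant group. In the upper panel all 4 HP8_T1 columns are brighter than the others in 89 of the 94 rows, a difference in means that the choice requires, and line 1 is brighter than WT in many of the upper rows; the lower panel shows the 10 features that are darker in HP8_T1.

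The feature with the highest level in line 8 was Nta#S33578631, of 1005 bases. Its scaled reads were 1065, 1051, 1142 and 1181 in the HP8_T1 libraries, against 3.33, 3.45, 4.35 and 2.46 in WT and 5.86, 7.20, 13.9 and 5.95 in C. In HP1_T1 they were 134, 144, 144 and 151, against 107.05, 96.4, 140 and 128.9 in HP1_T2. Line 1 thus stood between the controls and line 8, far from both, and only the 2 generations of line 1 overlapped with each other. Per kilobase of length the feature ranked 30th of all features in HP8_T1, 182nd in HP1_T1, 243rd in HP1_T2, 5341st in C and 9715th in WT. Of its 5714 reads in HP8_T1, 5375 were unique.

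The groups that the choice did not set apart could be tested against each other for this feature. The log2 change of HP1_T1 against C was 3.82 (SE 0.20, edgeR adjusted p = 1.22e-31) and that against WT was 5.07 (SE 0.22, adjusted p = 1.40e-37), with all 4 libraries higher. HP1_T2 was higher than WT by 4.87 (SE 0.24, edgeR adjusted p = 2.29e-34), and its difference from HP1_T1 of −0.20 (SE 0.10, edgeR adjusted p = 0.0996) did not pass the threshold of 0.05. C was higher than WT by 1.25 (SE 0.46, edgeR adjusted p = 0.0346). This last call rests on few reads, 22 in C and 11 in WT over 4 libraries each, and was lost without C replicate 3 (0.85, adjusted p = 0.266) and also without WT replicate 1, 2 or 4 (adjusted p = 0.0548, 0.0626 and 0.0884 in that order).

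The feature with the largest ratio to the next group was Nta#S45513050, of 761 bases, and it was a rare transcript. It had 26, 17, 27 and 33 reads in the HP8_T1 libraries, which scale to 25.2, 12.2, 18.9 and 25.6. It had 0 reads in each of the 4 C libraries, 1, 0, 1 and 0 in WT, 0, 2, 2 and 1 in HP1_T1, and 2, 0, 0 and 0 in HP1_T2. This is the pattern of reads in line 8 with next to none in any other group. With C set at 3 reads over the group, HP8_T1 was at least 17.4-fold higher, a bound that covers counting error only. Its ratio of X to HP1_T1 was 12.2 and rests on 5 reads in HP1_T1. Between the other groups it was called in 0 of the 5 comparisons made here (edgeR adjusted p of 0.204 to 0.943), at counts where a difference would be hard to detect.

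**Figure D2:**
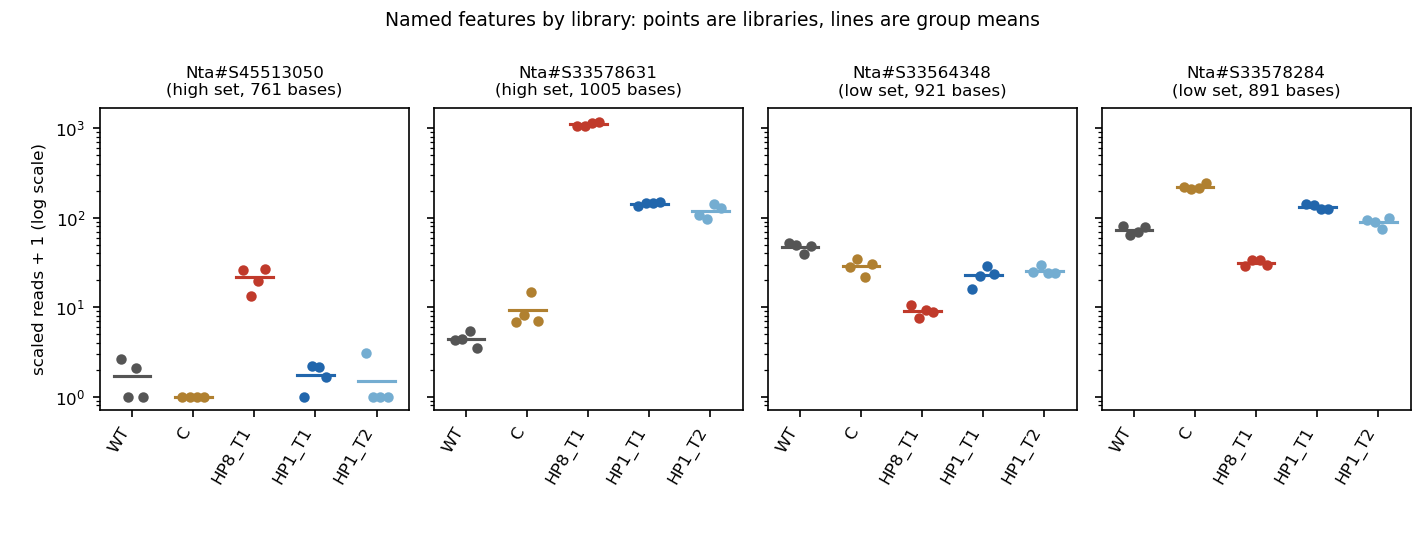
Scaled reads plus 1, on a log axis, of the 4 named features in each library (points) with group means (lines). Nta#S33578631 lies between 1051 and 1181 scaled reads in HP8_T1 with line 1 between it and the controls, Nta#S45513050 is near 0 outside HP8_T1, and the 2 features of the low set have their lowest libraries in HP8_T1.

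Other features with high levels in line 8 differed in how the remaining groups were arranged. The second by level, of 2888 bases, had X of 837 in HP8_T1, 264 in HP1_T1, 225 in HP1_T2, 118 in C and 34.3 in WT. The fourth, of 900 bases, had 488 in HP8_T1, 142 in HP1_T1 but only 36.0 in HP1_T2, with 23.1 in C and 2.59 in WT, and the fall from HP1_T1 to HP1_T2 passed the edgeR test. The seventh, of 845 bases, had 385 in HP8_T1, 44.01 in HP1_T1, 29.2 in HP1_T2, 8.46 in C and 2.59 in WT. In these 3 features C was called higher than WT, and HP1_T1 higher than C.

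Other leading features had other arrangements. The sixth, of 1637 bases, had X of 425 in HP8_T1, 206 in HP1_T2, 138 in HP1_T1 and 55.2 in WT, with C between the last 2, and HP1_T1 was not called against C. The eleventh, of 1812 bases, had 192 in HP8_T1 against 84.4, 80.7, 67.2 and 75.5 in HP1_T2, HP1_T1, C and WT, and it was called in 0 of the 5 comparisons among those groups. The tenth, of 884 bases, had no read in WT (0 in each library) and X of 4.15 in C, 60.97 in HP1_T1, 27.1 in HP1_T2 and 193 in HP8_T1.

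Although the features were selected for standing apart in line 8, many were also called higher in line 1 than in the controls. Line 1 held the second highest level in 77 of the 94 features, HP1_T1 in 49 and HP1_T2 in 28, while C did so in 9 and WT in 8. Among all 2193 features with X of at least 20 in HP8_T1, line 1 was the highest of the 4 other groups in 61.8%. Over those features the median ratio of HP8_T1 was 1.15 to HP1_T1 and 1.17 to HP1_T2, against 1.36 to C and 1.43 to WT. They were picked for their level in HP8_T1, which favours ratios above 1. These ratios are given with median-ratio scaling only, so nothing is read from their order. Both line 1 groups were above both WT and C in 55 features, a count whose share among other features was not computed. The comparisons that follow leave out HP8_T1, but the choice still bounds the groups compared. For the high set each had to stay at least 2-fold under HP8_T1, whose X had to reach 20. For the low set each had to reach an X of 20 and lie at least 2-fold above HP8_T1. All 94 and all 10 features passed the filter on low counts, which line 8 alone could satisfy for the high set. The comparisons share groups with each other (HP1_T1 or WT enters several), so their counts are not independent.

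Tested across 7126 features, 40 of the 94 were higher in HP1_T1 than in C (42.6%), where 19.8% of all features were called higher, and 5 were lower (5.32%, against 17.9% of all). Against WT, 42 were higher in HP1_T1 (44.7%, against 29.9%) and 10 lower (10.6%, against 24.4%). In HP1_T2 against WT, 41 were higher (43.6%, against 27.8%) and 14 lower (14.9%, against 24.5%). The median log2 change was 0.84 in HP1_T1 against C, where that of all features was 0.08, and 0.66 and 0.58 in HP1_T1 and HP1_T2 against WT, where those of all features were 0.16 and 0.11. With groups at 0 reads set to 3 reads over the group, the first median became 0.72 and the other 2 did not move. In either direction 45, 52 and 55 of the 94 were called in these 3 comparisons, where 37.7%, 54.3% and 52.3% of all features were. A call means an adjusted p of at most 0.05 in the quasi-likelihood test of edgeR with TMM scaling. The 7126 features were not picked for their level in HP8_T1. Shares called over the 2193 features with X of at least 20 there were not computed. How far the choice itself sets these differences was not tested.

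The size of these counts depended on the scale. With library totals in place of TMM, 83 were higher and 0 lower in HP1_T1 than in C, but the median of all features then stood at 1.52, and the set's median of 2.25 was 0.73 above it, against 0.76 above it with TMM. With totals outside the most abundant feature, 54 were higher and 1 lower, and the set's median was again 0.76 above that of all features. Against WT, library totals gave 81 higher and 0 lower in HP1_T1 and 70 and 2 in HP1_T2, with the medians of all features at 1.72 and 1.30. Totals outside the most abundant feature gave 72 and 1 in HP1_T1 and 62 and 6 in HP1_T2, with those medians at 1.22 and 0.86.

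In empty-vector plants against wild type the shares called were close to those of all features. In C against WT, 20 of the 94 were higher (21.3%, where 19.6% of all features were called higher) and 16 were lower (17.0%, against 21.0%), so 36 were called in all, where 40.6% of all features were, with a median log2 change of 0.17 against 0.00 for all features. With totals outside the most abundant feature as the scale, 38 were higher and 6 lower, with the median of all features at 0.67 and that of the set at 0.84.

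Between the generations of line 1, 10 of the 94 were higher in HP1_T2 (10.6%, where 16.9% of all features were called higher) and 13 were lower (13.8%, against 17.4%), 23 in all, where 34.3% of all features were called. The median log2 change was −0.13, against −0.01 for all features. With library totals 2 were higher and 34 lower, and with totals outside the most abundant feature 5 were higher and 30 lower, with the median of all features at −0.37 and −0.31.

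**Figure D3:**
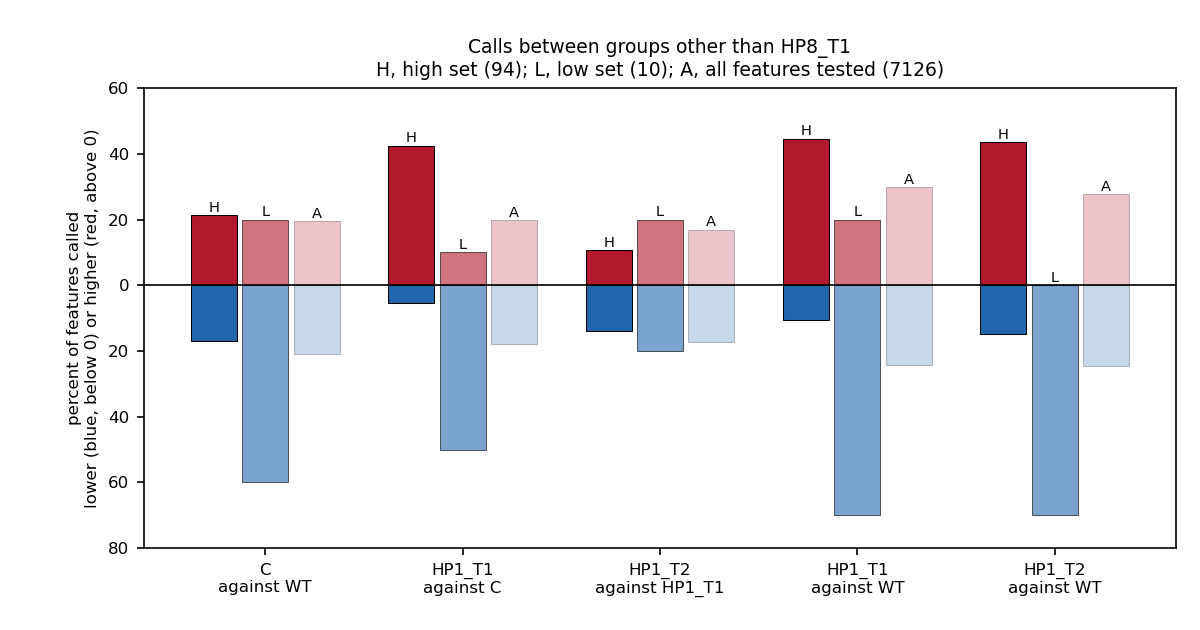
Percent of features called higher (red, upward) or lower (blue, downward) at an edgeR adjusted p of 0.05 in 5 comparisons that leave out HP8_T1, for the high set (H), the low set (L) and all 7126 features tested (A). The high set was called higher in 42.6% to 44.7% of its features in the 3 comparisons of line 1 with C or WT, against 19.8% to 29.9% of all features. All features are not matched to either set in level, and for the low set 1 feature is 10% of the bar.

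The calls of line 1 against WT divided the high set into 4 kinds. In 35 features both HP1_T1 and HP1_T2 were higher than WT, as were 1423 (20%) of all 7126 features tested. Their median X rose from 3.42 in WT and 9.23 in C to 24.0 in HP1_T1, 21.1 in HP1_T2 and 66.9 in HP8_T1, and the median ratio of HP8_T1 to WT was 25.1. C was also higher than WT in 18 of these 35 and lower in 0, with 17 not called. Of all features tested, 19.6% were higher and 21.0% lower in C. The share among the 1423 was not computed, and these comparisons share WT. For these 35 features, line 8 was the highest of several raised groups and not the only one.

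In 29 features neither generation of line 1 was called against WT, which held for 31.7% of all features tested, a share close to that of the 29 in 94. Their median X was 9.21 in WT, 6.53 in C, 10.4 in HP1_T1 and 8.21 in HP1_T2, against 29.4 in HP8_T1. C was lower than WT in 5 of them and higher in 0, and 24 were called in none of the 3 comparisons with WT. A missing call does not show equal levels, and the median of 26 reads over the 4 WT libraries limits what could be called. By level alone, the other 4 groups lay within 2-fold of each other in 22 of the 94 features, a count whose share among other features was not computed.

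In 7 features both generations of line 1 were lower than WT, while line 8 was higher than WT by choice. Of all features tested, 17.6% were lower in both, a larger share than 7 of 94. Their median X was 21.9 in WT, 8.60 in C, 14.9 in HP1_T1, 11.5 in HP1_T2 and 49.3 in HP8_T1, and C was lower than WT in 6 of the 7. By these medians the transgenic groups other than line 8 lay under WT, and line 8 above it by choice. In 1 of the 7, C was not called against WT and had X of 24.5 against 21.9. The last 23 features were called in 1 generation of line 1 and not in the other, and 0 were called in opposite directions in the 2 generations. Of the 7126 features tested, 1423 were higher in both, 1256 lower in both and 2262 called in neither. The rest were called in 1 generation only or in opposite directions, which were not counted apart. For the calls of C within each kind, matching shares over all features were not computed.

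**Figure D4:**
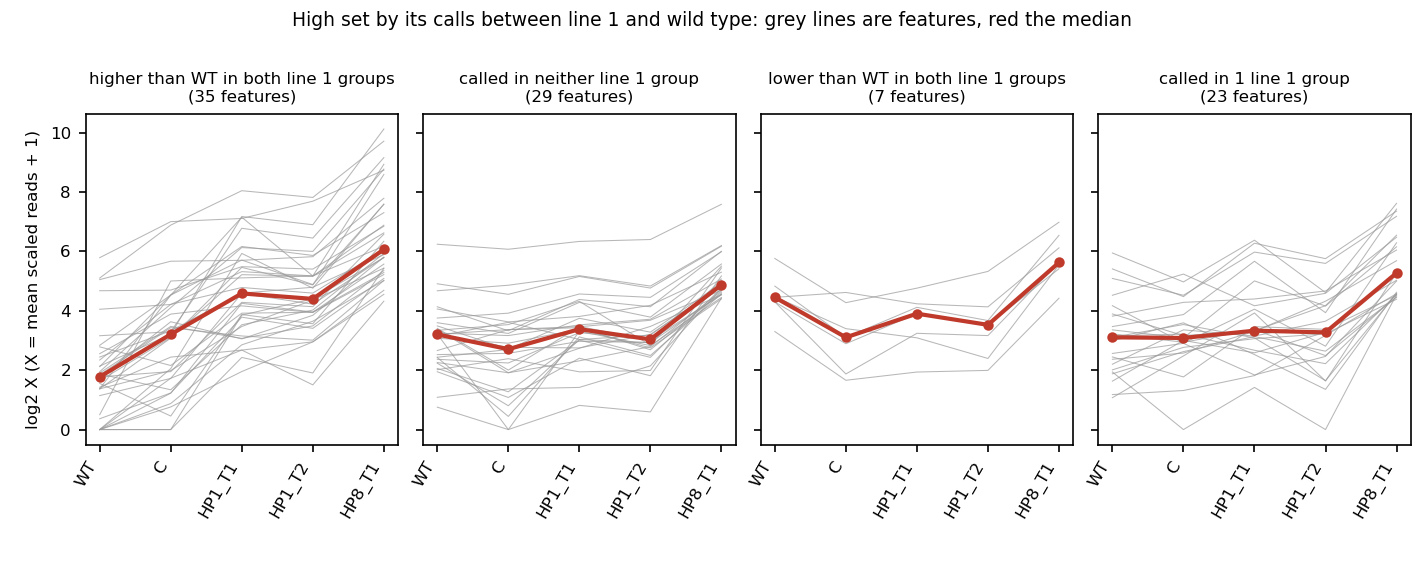
Levels of the 94 features of the high set as log2 X in each group, with a grey line for each feature and the median in red, split by the edgeR calls of HP1_T1 and HP1_T2 against WT. The first panel (35 features) climbs from WT through C and line 1 to HP8_T1, the second (29 features) has medians of 6.53 to 10.4 in the other groups and 29.4 in HP8_T1, and the third (7 features) dips below WT before HP8_T1.

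The low set was small and close to its bounds. Summed over its 10 features, scaled reads were 878, 908, 879 and 881 in WT, 651, 661, 643 and 638 in C, 505, 465, 487 and 479 in HP1_T1, with 401, 374, 392 and 401 for HP1_T2. In HP8_T1 they were 133, 138, 126 and 134. The ratio of the lowest other group to HP8_T1 ran from 2.03 to 2.51 with a median of 2.21, so no feature of this set passed 3-fold, and all 10 kept some reads in HP8_T1, where X ran from 8.80 to 31.5.

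The low feature with the largest ratio was Nta#S33564348, of 921 bases. Its scaled reads were 9.69, 6.48, 8.38 and 7.77 in HP8_T1, while HP1_T1 had 15.0, 21.3, 28.2 and 22.6, and HP1_T2 had 23.4, 28.5, 22.9 and 22.9. They were 27.4, 33.1, 20.9 and 29.8 in C and 51.6, 48.3, 38.1 and 46.7 in WT, so the 3 middle groups overlapped and WT stood above them. Among the groups other than HP8_T1, C was lower than WT by a log2 change of −0.74 (SE 0.22, edgeR adjusted p = 0.00428), and HP1_T1 and HP1_T2 were lower than WT by −1.31 (SE 0.19, adjusted p = 9.99e-09) and −1.09 (SE 0.20, adjusted p = 3.04e-06). The change of −0.57 in HP1_T1 against C (SE 0.23, edgeR adjusted p = 0.0416) was lost under several settings. It turned to 0.89 with library totals, where the changes of HP1_T1 and HP1_T2 against WT became 0.26 and 0.11.

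The low feature that was highest in the other groups was Nta#S33578284, of 891 bases. Its scaled reads were 28.1, 32.4, 32.8 and 28.8 in HP8_T1, 79.8, 63.3, 68.6 and 78.6 in WT, and 219, 207, 216 and 242 in C. In HP1_T1 they were 141, 138, 125 and 123, and in HP1_T2 92.8, 88.9, 74.1 and 99.3. C was thus the highest group and HP8_T1 the lowest, with WT and HP1_T2 overlapping. The log2 change of C against WT was 1.59 (SE 0.12, edgeR adjusted p = 3.40e-21), HP1_T1 was lower than C (adjusted p = 1.32e-14), and HP1_T2 was lower than HP1_T1 by −0.49 (SE 0.11, adjusted p = 0.000170). With library totals the difference of HP1_T1 from C became 0.45.

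Most of the other low features were highest in wild type. WT had the highest level in 7 of the 10, C in 2 and HP1_T1 in 1. How often WT was highest among the 1086 features with X of at least 20 in the other groups was not computed. The feature of 926 bases had X of 273 in WT, 153 in C, 46.7 in HP1_T1, 38.1 in HP1_T2 and 17.4 in HP8_T1, and the feature of 1310 bases had 130, 41.9, 32.8, 48.7 and 14.7 in the same order. The feature of 1881 bases departed from this, with 112 in HP1_T1 against 64.1 in WT, 33.8 in HP1_T2, 22.9 in C and 10.5 in HP8_T1, and edgeR called it higher than WT in HP1_T1 and lower in HP1_T2.

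In the same tests, C was lower than WT in 6 of the 10 and higher in 2, where 21.0% of all features were called lower and 19.6% higher. HP1_T1 was lower than WT in 7 and higher in 2, and HP1_T2 was lower than WT in 7 and higher in 0. Of all features, 24.4% and 24.5% were called lower in these comparisons, and 29.9% and 27.8% higher. HP1_T1 was lower than C in 5 and higher in 1, where 17.9% of all features were called lower and 19.8% higher. HP1_T2 differed from HP1_T1 in 4, with 2 in each direction, a share near the 34.3% of all features called. These directions depended on the scale. With library totals HP1_T1 was higher than C in 8 and lower in 1, both HP1_T1 and HP1_T2 were higher than WT in 4 and lower in 3, and HP1_T2 was higher than HP1_T1 in 1 and lower in 4. With totals outside the most abundant feature the counts were 1 higher and 3 lower in HP1_T1 against C, 3 and 4 in HP1_T1 against WT, 1 and 4 in HP1_T2 against WT, 1 and 4 in HP1_T2 against HP1_T1, and 2 and 4 in C against WT. The median log2 changes of −0.81, −1.26 and −1.11 in C, HP1_T1 and HP1_T2 against WT compare with 0.00, 0.16 and 0.11 for all features. With library totals the last 2 became 0.31 and 0.09, where all features stood at 1.72 and 1.30. A set of 10 whose levels had to reach 20 in every group but line 8 gives counts that 1 feature moves by 10 percentage points. Calls are easier at such levels than at low counts, and shares over features of like level were not computed.

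By the median, the 4 libraries of line 8 were closer to each other in the high set than in the low set. The coefficient of variation between them had a median of 12.4% in the high set, with a range from 2.63% to 46.3%. In the low set the median was 22.1%, with a range from 7.99% to 64.6%. It was 14.1% over all 2193 features with X of at least 20 in HP8_T1, a level above the low set's median X of 12.6. The high set's median X in HP8_T1 was 43.3, and counting error is a larger part of the level at low counts. The spread was not compared between features of like level, so nothing is read from the difference between the high and low sets. In 89 of the 94 high features, all 4 HP8_T1 libraries lay above the 16 others, an arrangement found in 12.2% of those 2193 features. In 9 of the 10 low features all 4 lay below the others, an arrangement found in 4.70% of the 1086 features with X of at least 20 in the other groups. The choice used the means of the same libraries, so nothing is read from these counts.

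The choice was also repeated without 1 library of HP8_T1 at a time. With HP8_T1 replicate 1, 2, 3 or 4 left out, the rule chose 99, 90, 98 and 95 high features. In the library left out, 78, 79, 76 and 81 of them were again at least 2-fold above the mean of each other group, and all of them lay above each other group's mean. For the low set the rule chose 10, 10, 8 and 10 features, of which 4, 7, 4 and 5 met the 2-fold bound in the library left out, and all lay below each other group's mean. The 16 other libraries were the same in the choice and in this comparison, so only the HP8_T1 side is new. The left-out library may also come from the same plant as the other 3, so this speaks to libraries and not to plants.

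Some features lay just inside or just outside the bounds. The high features nearest to the 2-fold bound had ratios of 2.01, 2.01 and 2.02, and the nearest features outside had 1.997, 1.995 and 1.97. There were 22 features with a ratio from 2 to under 2.2 inside and 32 from 1.8 to under 2 outside. The lowest X in HP8_T1 was 20.01 inside and 19.8 outside. For the low set the nearest ratios were 2.03 inside and 1.91 outside.

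Feature length did not set the sets apart from other features of similar level by its median. The median length was 914 bases in the high set (from 383 to 2888) and 924 in the low set (from 888 to 1881). It was 909 among the 2193 features with X of at least 20 in HP8_T1, 918 among the 1086 with X of at least 20 in the other groups, and 793 over all features. All reads were unique in 55 of the 94 high features and 4 of the 10 low ones. Fewer than 90% were unique in 17 of the 94, where this held for 14.2% of the 2193 features. Fewer than 50% were unique in 4 of the 94, against 2.05% of the 2193. In the low set fewer than 90% were unique in 3 of the 10, and the share among the 1086 was not computed.

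Features with many shared reads are uncertain, since reads of a near-identical copy can be counted for them. The fifth high feature by level, of 1071 bases, had X of 436 in HP8_T1, 69.9 in HP1_T1, 63.9 in HP1_T2, 17.2 in C and 3.86 in WT, but 23.7% of its reads were unique. The lowest unique share in the high set was 13.6%. When unique reads alone were counted, 90 features met the rule for the high set, 86 of them among the 94, and 7 met it for the low set, all among the 10.

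The same rule applied to the other groups gave other counts. It set apart 23 high and 18 low features in C, 23 and 16 in HP1_T1, 12 and 6 in HP1_T2, and 346 and 110 in WT. HP1_T1 and HP1_T2 are parent and progeny, and a feature whose X in them lies within 2-fold of each other cannot be set apart in either. With HP1_T2 left out of the rule, a step chosen after seeing the data, 133 features were high and 29 low in HP8_T1, against 66 high and 31 low in HP1_T1. No test was made of these differences.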

How the data were processed

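Leaf RNA of 20 libraries (5 groups of 4) was analysed. Per the labels' protocols, RNA came from a LiCl extraction, and libraries from a SOLiD kit for total RNA. The sources used here do not give the aligner or build. The authors deposited counts of total and unique gene reads per feature, with feature lengths, per the file headers. The 2 deposited tables share the WT libraries with identical values and were joined.

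Total gene reads were divided by size factors (median ratio to the geometric mean, features with at least 10 reads in every library), and X is the group mean plus a pseudocount of 1. The groups other than HP8_T1 were compared with edgeR 4.0.16 in R 4.3.3: 1 fit of 20 libraries, filterByExpr with a minimum count of 10, TMM, no term but group, quasi-likelihood F tests, Benjamini-Hochberg adjustment over 7126 features, threshold 0.05. SE is the log2 change divided by the square root of F. The common coefficient of variation was 8.90%. Alternatives were DESeq2 1.42.0, other scalings, no filter, unique reads, a replicate block and leaving out each library. The fit and the rule were tested on simulated data. Python 3.11.15 was used elsewhere.

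The members and comparisons were chosen with earlier results of these data known, and the comparisons of line 1 with WT were added after seeing the data. Named features are, per set, the one with the largest ratio to the nearest group and the one with the highest level (in the low set, the highest lowest level of the other groups). Others are given by rank without identifiers. Lists of genes by function or cell type could not be matched to these identifiers. The bound given for a group without reads covers counting error only, while SE also takes in the spread between libraries. The labels give no batch.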

Additional observations from a re-analysis of the deposited data

Results flagged for a closer look

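In 30 groups of 4 values (each named feature and each set's sum in each plant group), 4 had a library whose gap to the others was large for the group's range by Dixon's test at 95%, which chance alone flags in about 1 of 20 groups. Nta#S33578631 had 13.9 scaled reads in C replicate 3 (10 reads), against 5.86 to 7.20 in the other C libraries. Nta#S45513050 had 2.04 scaled reads (2 reads) in HP1_T2 replicate 1 and 0 in the other 3. Nta#S33564348 had 28.5 scaled reads in HP1_T2 replicate 2, against 22.9 to 23.4 in the others. The sum of the low set was 908 scaled reads in WT replicate 2, against 878 to 881 in the others.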

How the results depend on the processing

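The sizes of the sets depended on the scale. The high set had 94 features with median-ratio scaling, 73 with TMM (all 73 among the 94), 149 with library totals (81 among the 94) and 70 with totals outside the most abundant feature (66 among the 94). The low set had 10, then 17 with TMM, 6 with library totals, where 1 of the 10 was kept, and 13 with totals outside the most abundant feature. It had 5 with a pseudocount of 5 and 29 with HP1_T2 left out of the rule. Leaving out each of the 20 libraries gave 90 to 99 high and 8 to 12 low features. Among calls in the high set, library totals gave 83 in HP1_T1 against C (45 with TMM), 81 in HP1_T1 against WT (52) and 36 in HP1_T2 against HP1_T1 (23), and totals outside the most abundant feature gave 35 in the last. Leaving out each of the 16 libraries other than HP8_T1 gave 32 to 38, 38 to 45, 21 to 25, 42 to 52 and 49 to 54 calls in C against WT, HP1_T1 against C, HP1_T2 against HP1_T1, HP1_T1 against WT and HP1_T2 against WT. Counts of calls in either direction and set sizes otherwise stayed within 1.5 times, while their split by direction moved further with library totals and totals outside the most abundant feature: in HP1_T2 against WT the high set went from 41 higher and 14 lower to 70 and 2, and to 62 and 6. With library totals the log2 change of Nta#S33564348 turned to 0.89 in HP1_T1 against C, 0.26 in HP1_T1 against WT and 0.11 in HP1_T2 against WT, and that of Nta#S33578284 to 0.45 in HP1_T1 against C. The cause of these shifts was not tested.

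Libraries of the same replicate number correlated in their deviations from group means at −0.0366 to 0.130 over 40 pairs, with 14 pairs over 0.1, and 17 of 20 libraries correlated best with their own number. The median was 0.0708, against −0.0305 over 120 pairs of different numbers. This is a hint of a shared replicate effect in the data, but the labels name no shared source and not every pair was over 0.1, so the main fit has no block. With the replicate number as a block, calls in the high set were 37, 45, 26, 52 and 55 in the order above, against 36, 45, 23, 52 and 55 without the block, and in the low set 8, 6, 4, 9 and 7, as without it. The depth of C, 199341 to 293708 reads outside the most abundant feature, was the lowest of the 5 groups.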

Other observations

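Outside the low set by a narrow margin lay a feature of 1026 bases with X of 1134 in WT, 156 in C, 19.4 in HP1_T1, 19.0 in HP1_T2 and 5.16 in HP8_T1, singled out after its values were seen. It missed the set because line 1 stayed under 20, and among the features with line 8 at least 2-fold under each other group it is the nearest to that bound. A member of the high set, the twelfth by level and of 599 bases, had X of 192 in HP8_T1 against 52.2 in HP1_T1, 29.5 in HP1_T2, 23.1 in C and 7.14 in WT. Of the 94 high features, 36 ranked among the 500 most abundant per kilobase in HP8_T1, against 9 in HP1_T1, 4 in HP1_T2, 1 in C and 0 in WT, a consequence of the choice given here as a description.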
